A study of Mus musculus with 8 samples.

Results

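The Igf2r and Airn cluster is an imprinted domain on mouse chromosome 17, represented here by 4 genes, Slc22a3, Slc22a2, Igf2r and Airn, of the 49214 annotated genes that have a replication timing score. The genes were chosen by their membership of the domain and by their scores at the gene midpoints in the 4 deposited timing profiles, together with the profile 1 Mb either side, so the scores below are a description and carry no test. The study measured replication timing in mouse embryonic stem cells by Repli-seq, which pulls down the DNA copied while cells take up BrdU (2 h here) and compares an early with a late sorted fraction of S phase. The dTAG group was collected 2 days after treatment with dTAG, a small molecule that directs a tagged protein to degradation and was used against the zinc finger factor YY1; the control group has no treatment named in its labels. Each group had 2 profiles, numbered 1 and 2, and each profile joins an early and a late fraction, so 8 samples stand behind 4 profiles. For culture and treatment the labels point to an earlier publication, and they name neither the genotype of the line nor whether it is 1 clone or what the controls received.

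Genomic imprinting leaves 1 parental copy of a gene silent. Igf2r encodes the cation-independent mannose 6-phosphate receptor, which carries lysosomal enzymes to lysosomes and takes up IGF2 for breakdown, and it is expressed from the maternal copy in most mouse tissues. Airn is a long noncoding RNA made from the paternal copy, antisense to Igf2r, from a promoter inside an Igf2r intron; its transcription silences the paternal Igf2r, and in extra-embryonic tissue it also silences the neighbouring organic cation transporter genes Slc22a2 and Slc22a3. In embryonic stem cells Igf2r is not yet silenced on the paternal copy, and the silencing appears as the cells differentiate. Imprinted domains are known for copies that replicate at different times, and the scores used here join both copies.

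In map order on mm10 the cluster begins with Slc22a3 (chr17:12419972-12507704, minus strand), which is followed by Slc22a2 (chr17:12584189-12628489, plus strand), and by Igf2r (chr17:12682406-12769706, minus strand). Airn (chr17:12741311-12859884, plus strand) starts inside Igf2r and runs past its start into the protein-coding gene Mas1. Gene limits are from RefSeq, GRCm38.p6, the NCBI counterpart of mm10. The midpoints of Slc22a3 and Airn lie 337 kb apart, at opposite ends of the cluster.

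The start regions at both ends of the cluster, and that of Igf2r between them, are shown because they mark where the genes of the timing slope begin and because YY1 is a promoter-binding factor. Each runs 5′ to 3′ along its gene, from 250 bases before to 50 bases after the start, and was taken from RefSeq on GRCm38.p6. Capitals mark ATGGC, the core of the YY1 motif, read on either strand (GCCAT on the other).
Airn, chr17:12741061-12741360, plus strand: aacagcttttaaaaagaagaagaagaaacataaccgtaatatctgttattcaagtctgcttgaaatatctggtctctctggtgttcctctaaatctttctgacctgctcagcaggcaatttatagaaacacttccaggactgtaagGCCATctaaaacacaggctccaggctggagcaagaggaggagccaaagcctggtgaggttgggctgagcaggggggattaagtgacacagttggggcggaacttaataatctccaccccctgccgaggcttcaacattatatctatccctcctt
Igf2r, chr17:12769657-12769956, minus strand: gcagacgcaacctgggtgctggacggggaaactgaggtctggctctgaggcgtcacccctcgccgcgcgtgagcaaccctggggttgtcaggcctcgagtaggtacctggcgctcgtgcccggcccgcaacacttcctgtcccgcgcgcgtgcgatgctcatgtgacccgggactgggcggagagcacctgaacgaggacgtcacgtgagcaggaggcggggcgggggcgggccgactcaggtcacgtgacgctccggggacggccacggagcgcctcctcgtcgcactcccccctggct
Slc22a3, chr17:12507655-12507954, minus strand: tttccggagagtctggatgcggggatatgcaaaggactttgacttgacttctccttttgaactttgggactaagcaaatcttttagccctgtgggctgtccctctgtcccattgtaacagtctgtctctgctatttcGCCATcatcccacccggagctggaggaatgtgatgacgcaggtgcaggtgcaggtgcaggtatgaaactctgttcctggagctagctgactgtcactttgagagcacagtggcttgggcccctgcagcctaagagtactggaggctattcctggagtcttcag

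The Airn and Slc22a3 start regions each held 1 copy of the core, on the reverse strand, at bases 147 and 138 of the sequence. The core was absent from the Igf2r and Slc22a2 start regions. Of 32851 mouse start regions of the same length 40.5% held the core, and a longer form of the motif, AANATGGC on either strand, was found in 6.05% of them and in none of the 4 here. These are matches of letters and not measured binding sites. The 4 regions also differed in CG dinucleotides: Igf2r had 34, more than 92.3% of all start regions, against 8 at Slc22a2, 5 at Slc22a3, 3 at Airn and a median of 7 over all.

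Timing values are signed scores without a stated log base, high where replication was early, and the depth behind them is unknown. The direction was read from genes that replicate early in most cells: 80 of 81 ribosomal protein genes scored above 0, as did 35130 of all 49214 genes. All 9 listed genes of the stem cell state, among them Pou5f1, Sox2 and Nanog, scored above 0, but so did 3 of 4 genes of later neural cells, so timing does not settle the cell type label. The 4 profiles correlated at r = 0.965 to 0.993 over the genome, highest within a replicate number. Profiles numbered 1 share 1 set of sorted scores with a mean of 0.20, and those numbered 2 hold nearly the same set with the sign turned and a mean of -0.20, so each group spans this offset and the differences are also given within each replicate number. For dTAG 1 the sample titles and the fraction labels disagree on which sample is early, yet its profile ran the same way as the other 3. Nothing in the labels says that replicates came from separate cultures, so a p-value here speaks to the spread of these 4 profiles alone, which may be technical.

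The cluster lay on a steep timing slope, from scores near 0 to scores above those of most of the genome, that ran upward from Slc22a3 to Airn in all 4 profiles. Slc22a3, the gene for organic cation transporter 3, had the lowest scores of the 4 genes, with 0.96 and -0.21 in dTAG 1 and dTAG 2, against 1.01 and 0.32 in control 1 and control 2. The groups overlapped, and dTAG 2 was the only profile below 0 there. Slc22a2, which encodes organic cation transporter 2, had 1.93 and 1.41 after dTAG, against 1.70 and 1.16 in the controls. At Igf2r the scores were 3.46 and 3.24 after dTAG, against 3.25 and 2.90 in the controls, so that dTAG 2 lay just below control 1. Airn had the highest scores, 4.30 and 4.32 after dTAG, against 3.88 and 3.67 in the controls. On these scores, which carry the offset between replicate numbers, it was the gene of the 4 at which the groups did not overlap. By rank within each profile, Airn stood above 92.6% and 96.8% of positions after dTAG, against 87.4% and 88.4% in the controls. Igf2r stood above 81.0% and 81.2%, against 77.7% and 76.7%, and Slc22a2 above 63.1% and 63.0%, against 61.3% and 60.9%. At Slc22a3 the groups overlapped by rank too.

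The order of the 4 genes was the same in every profile. Averaged over all 4 profiles, Airn scored 4.04, above 91.4% of all genome positions, while Igf2r scored 3.21 (above 78.8%), Slc22a2 1.55 (62.1%) and Slc22a3 0.52 (54.1%). Among protein-coding genes, which are mostly early, the Slc22a3 score stood above 23.0% and the Igf2r score above 49.1%. No neighbours in this order overlapped, but the margins were narrow at both ends: the highest score at Slc22a3 was 1.01 and the lowest at Slc22a2 1.16, and the highest at Igf2r was 3.46 and the lowest at Airn 3.67. Those margins are smaller than the SD of 0.83 between the dTAG profiles at Slc22a3 and near that of 0.25 between the controls at Igf2r.

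**Figure D1:**
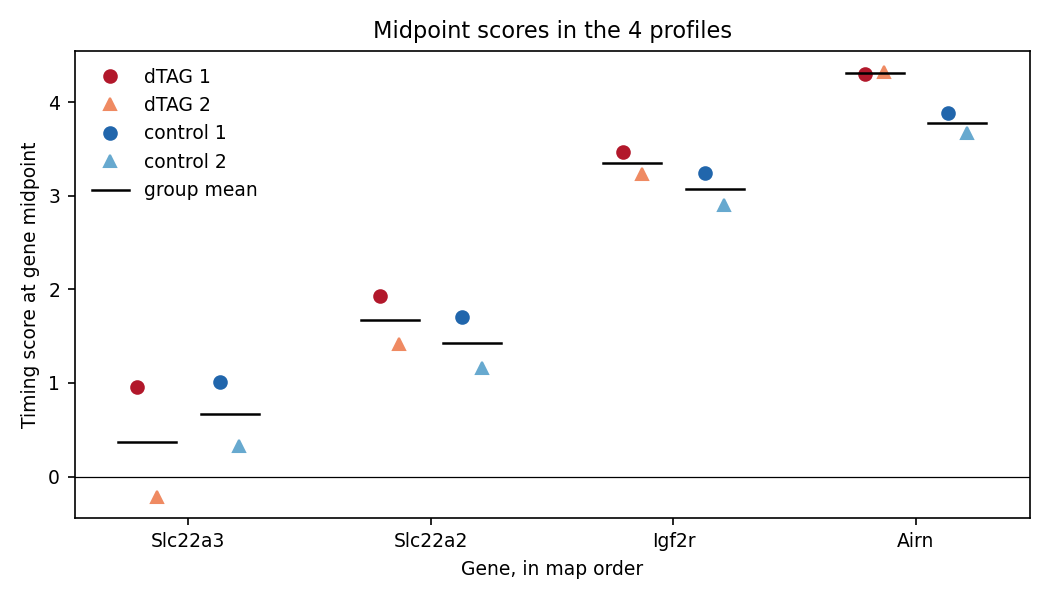
Timing score (vertical axis, score units, high is early) at the midpoints of the 4 genes in map order (horizontal axis), with circles for replicate 1, triangles for replicate 2 and a bar for the mean of the 2 profiles of each group. Scores climb from Slc22a3 to Airn in both groups, and at Airn both dTAG points (4.30 and 4.32) lie above both control points (3.88 and 3.67).

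Relative to the controls, dTAG scores were higher at the Airn end of the cluster and lower or mixed at the Slc22a3 end. Airn averaged 4.31 ± 0.01 (SD, n = 2) after dTAG and 3.77 ± 0.15 in control profiles, a difference of 0.54, with 0.42 in replicate 1 and 0.65 in replicate 2. Igf2r averaged 3.35 ± 0.16 after dTAG and 3.07 ± 0.25 in the controls, a difference of 0.28 (0.22 and 0.34). The difference at Slc22a2 was 0.24 (0.23 and 0.26), from 1.67 ± 0.36 after dTAG and 1.43 ± 0.39 in the controls. Slc22a3 averaged 0.37 ± 0.83 after dTAG and 0.66 ± 0.48 in the controls, a difference of -0.29 that came almost wholly from replicate 2 (-0.54, against -0.05 in replicate 1). For scale, the median size of a difference over all genes was 0.19 and the median itself was 0.00.

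With groups set apart by any margin of the score, 1 of the 4 genes, Airn, was higher after dTAG and 0 were lower. Over all genes 10.5% were set apart in the higher direction and 8.32% in the lower, and since the genes were chosen on these scores nothing is read from the count. With 1 profile left out the Airn difference ran from 0.43, where control 2 was missing, to 0.64, where control 1 was. Such values can carry the offset between replicate numbers, which by itself moved the median of all genes to between -0.24 and 0.20. Relative to that median the Airn difference ran from 0.33 to 0.78. The offset was not the same at every gene, and at Airn dTAG 1 and dTAG 2 scored 4.30 and 4.32. The median therefore does not measure the offset at Airn, where the difference itself was 0.55 without dTAG 1 and 0.53 without dTAG 2. The Slc22a3 difference turned positive without control 1 (0.05) and without dTAG 2 (0.29), and relative to the median of all genes it was -0.16 and 0.09 there. Slc22a2 turned slightly negative when control 2 (-0.03) or dTAG 1 (-0.02) was missing, and was 0.17 and 0.22 relative to the median. The mean of the 4 genes differed by 0.19 with all profiles, by 0.41 when control 1 was dropped, -0.03 for control 2, -0.0458 for dTAG 1 and 0.43 for dTAG 2. Relative to the median of all genes these became 0.21, 0.17, 0.19 and 0.22.

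A difference between 2 genes within a profile is free of an offset that is the same along the whole profile. The gap between replicate numbers was not the same along the cluster, however: replicate 1 exceeded replicate 2 by 1.06 between the dTAG profiles and by 0.64 between the controls from 12.45 to 12.50 Mb, in Slc22a3, and by -0.02 and 0.23 from 12.75 to 12.80 Mb, so the climb carries that part of it. From Slc22a3 to Airn the score climbed by 3.35 in dTAG 1 and 4.53 in dTAG 2, against 2.87 in control 1 and 3.34 in control 2. The climb averaged 3.94 ± 0.84 (SD, n = 2) after dTAG and 3.11 ± 0.33 in the controls, and the dTAG climb was larger by 0.47 within replicate 1 and by 1.19 within replicate 2. Both dTAG values exceeded both control values, but dTAG 1 did so over control 2 by under 0.01. The difference in climb of 0.83 was 0.24 when dTAG 2 was left out and 1.43 when dTAG 1 was, and it was 0.60 and 1.07 when control 1 and control 2 were. Over 335 kb, the nearest spacing on the 5 kb grid, 91.1% of 512905 pairs of positions along the genome had a smaller climb or drop than the mean of 3.52 here, and the median was 1.04. Of those pairs 5.91% changed by at least 0.5 the same way in both replicate numbers. The cluster itself missed that mark in replicate 1.

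The score also rose from end to end along 3 of the 4 genes. Across the body of Airn the net gain was 1.06 and 0.70 in dTAG 1 and dTAG 2, against 0.91 and 0.78 in control 1 and control 2, measured from the start to the far end of the gene. The peak lay inside Airn in all profiles but control 1, so these values join a rise and a drop there. In dTAG 2 the score reached 4.46 within Airn and was 4.22 at its far end. Igf2r is read in the opposite direction, so its start is the earlier-replicating end: the score there exceeded that at its far end by 0.76 and 1.17 after dTAG, against 0.70 and 0.93 in the controls. Within Slc22a2 the climb was 0.65 and 0.63 after dTAG, against 0.59 and 0.59 in the controls. Slc22a3 lay across the bottom of the slope: toward the rest of the cluster its score changed by -0.28 and 0.24 after dTAG, against -0.64 and -0.33 in the controls, so it dropped in all profiles but dTAG 2. Its lowest body scores were 0.88 and -0.23 after dTAG, against 0.82 and 0.26 in the controls.

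At the gene starts, which for Airn and Igf2r lie on opposite strands within Igf2r, the differences of these 2 genes were closer to one another than at the midpoints. The Airn start scored 3.61 and 3.46 after dTAG, against 3.37 and 3.07 in the controls, a difference of 0.31. The Igf2r start scored 3.88 and 3.90 after dTAG, against 3.61 and 3.37 in the controls, a difference of 0.40. Both dTAG scores lay above both control scores at each of these starts. At the Slc22a3 start the scores were 0.92 and 0.09 after dTAG, against 0.82 and 0.27 in the controls, and the difference was -0.04 with opposite signs in the replicate numbers (0.10 and -0.18).

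The local timing peak lay within Airn or just beyond its end, at 12.850 Mb in dTAG 1 and 12.825 Mb in dTAG 2, against 12.870 Mb in control 1 and 12.850 Mb in control 2. Its height was 4.71 and 4.46 after dTAG, against 4.37 and 3.91 in the controls, a difference of 0.34 in replicate 1 and 0.55 in replicate 2. The trough at the other end lay at 12.485 and 12.455 Mb after dTAG, inside Slc22a3, against 12.515 and 12.495 Mb in the controls, of which the first is just past the start of Slc22a3. From trough to peak the score climbed by 3.83 and 4.69 after dTAG, against 3.55 and 3.65 in the controls. The steepest 100 kb of it climbed by 1.51 and 1.57 after dTAG, against 1.48 and 1.54 in the controls, so the slope differed by 0.03 at its steepest. Past the peak the score dropped to a second trough near 13.33 Mb, by 4.42 and 4.72 after dTAG, against 4.07 and 3.97 in the controls.

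**Figure D2:**
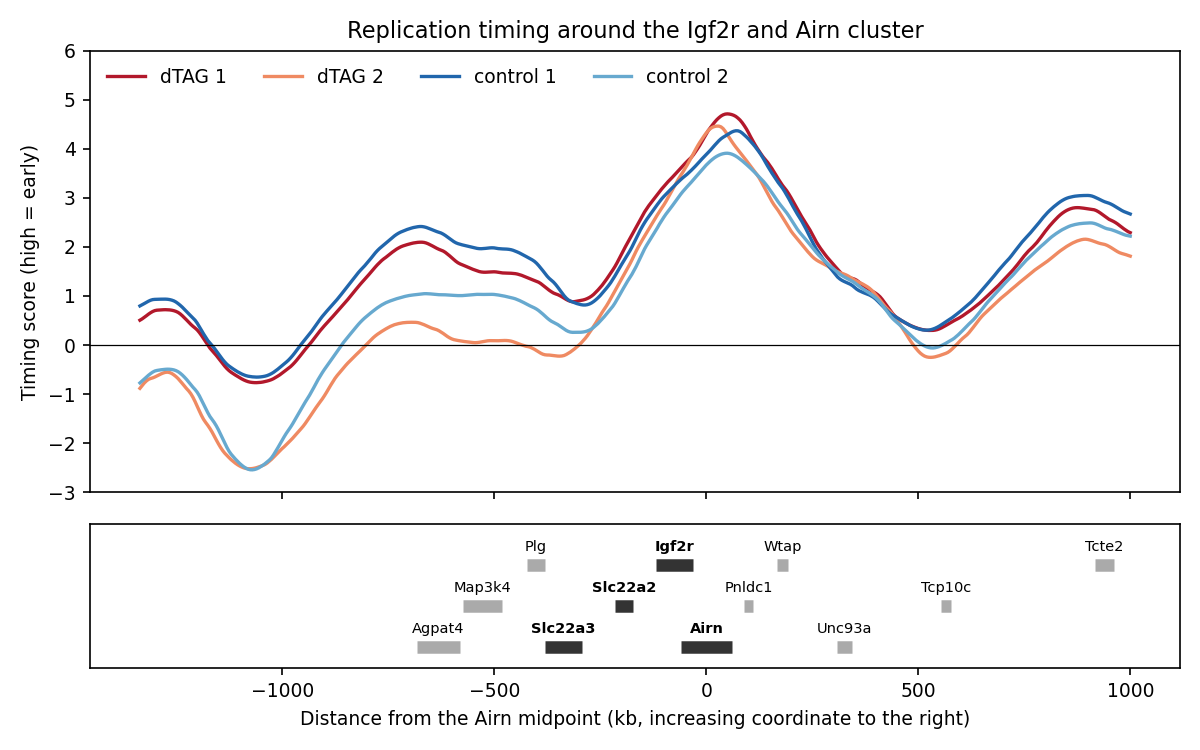
Timing score of the 4 profiles (upper panel, vertical axis, high is early) against distance from the Airn midpoint in kb (horizontal axis), with genes as bars below and the 4 members in black. All profiles peak 24.4 to 69.4 kb past the Airn midpoint, with heights of 4.71 and 4.46 after dTAG and 4.37 and 3.91 in the controls, and drop on both sides; replicate 2 runs below replicate 1 to the left of the cluster.

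On the Slc22a3 side the domain borders a plateau of lower scores with Agpat4, an acyltransferase gene, Map3k4, a stress kinase gene, and Plg, the gene for plasminogen. Here the dTAG scores were lower than the control scores within both replicate numbers. Map3k4 had 1.48 and 0.07 after dTAG, against 1.97 and 1.03 in the controls, a difference of -0.72 (-0.48 and -0.96). Plg had 1.30 and -0.11 after dTAG, against 1.67 and 0.73 in the controls, a difference of -0.61. Agpat4 differed by -0.54. The groups overlapped at all 3 genes, since the gap between replicate numbers (1.41 between the dTAG profiles at Map3k4) exceeded the difference between groups.

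The sign of the difference changed once between this stretch and the cluster. Both replicate numbers were lower after dTAG from 11.755 to 12.480 Mb, over 725 kb with mean differences of -0.30 and -0.62, and both were higher from 12.535 to 12.920 Mb, over 385 kb with 0.25 and 0.31. The switch from negative to positive lay within and just beyond Slc22a3. The widest positive difference in the region, 0.56, was at 12.810 Mb inside Airn (0.46 and 0.66), and the widest negative one, -0.72, at 12.265 Mb in Map3k4 (-0.47 and -0.98). The difference profile is itself smooth: over the genome its values correlated at r = 0.933 over 50 kb and r = 0.408 over 335 kb, as a description of points that share the smoothing, so neighbouring genes are not separate measurements.

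**Figure D3:**
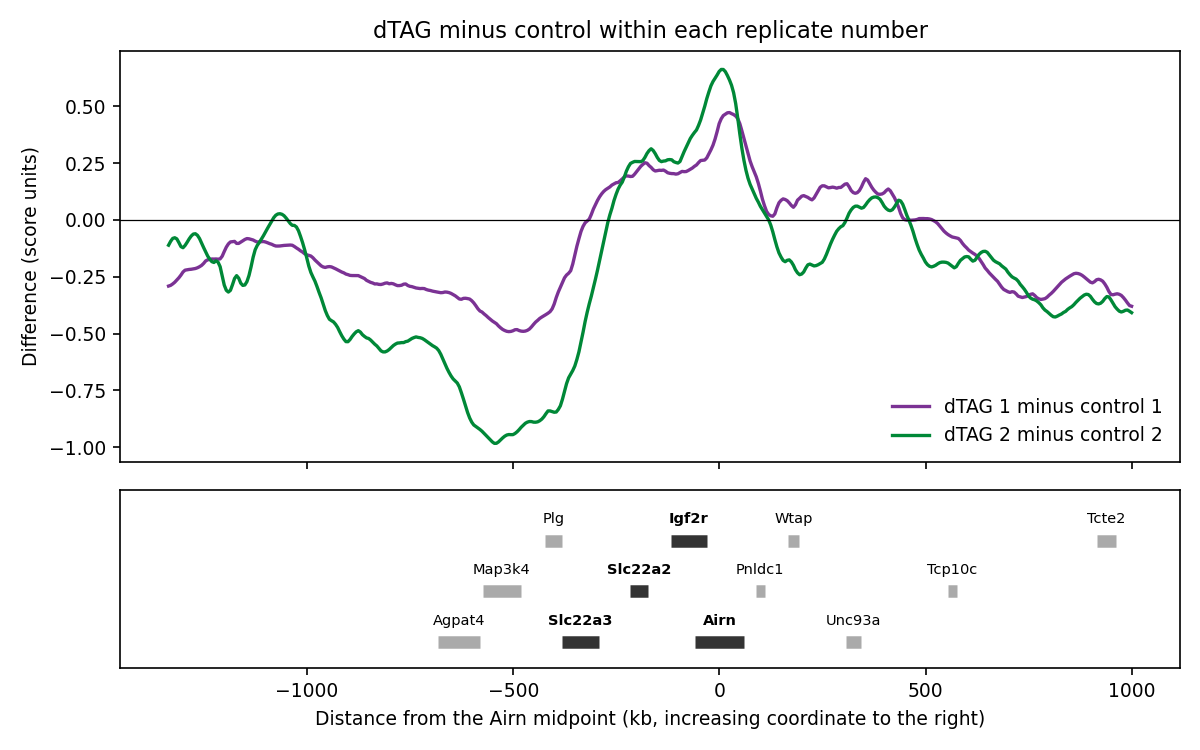
Difference in timing score, dTAG minus control within replicate 1 and within replicate 2 (vertical axis, score units), against distance from the Airn midpoint in kb, with genes as bars below. Both curves are negative over Map3k4 and Plg, cross 0 in or just past Slc22a3, and their mean peaks inside Airn, where they stand at 0.46 and 0.66.

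Beyond Airn the difference shrank, stayed small to about Smok2b and was then negative. Mas1, which encodes a receptor for a peptide of the angiotensin system and overlaps the end of Airn, had 4.71 and 4.22 after dTAG, against 4.32 and 3.91 in the controls. The differences were 0.21 at Mrgprh, an orphan receptor gene, 0.09 at Pnldc1, a ribonuclease gene of the piRNA pathway, and 0.03 at Mrpl18, for a mitochondrial ribosomal protein. At Tcp1, a chaperonin subunit gene, Acat3 and Acat2, the acetyl-CoA acetyltransferase genes, Wtap, a subunit of the RNA methylation complex, and Sod2, the mitochondrial superoxide dismutase gene, they lay between -0.07 and 0.01. From 13.32 to 13.80 Mb, over 480 kb to the end of the region, both replicate numbers were again lower after dTAG, with mean differences of -0.25 and -0.29, and Tcte2 there had 2.62 and 2.05 after dTAG, against 2.92 and 2.39 in the controls. In all, the dTAG score was lower in both replicate numbers at 296 of the 468 positions of the region and higher in both at 107. These positions fall in a few long stretches of a smoothed profile. The share over the genome was not computed, so nothing about the region is read from the counts. Of the 23 protein-coding genes with a midpoint in the region, all scored above 0 on average, beside 71.4% of all genes. Of the 23, 3 were set apart as higher after dTAG and 0 as lower, beside 10.5% and 8.32% of all genes. Those 3, Unc93a, Smok2a and Smok2b, differed by 0.07 to 0.09 where all 4 profiles nearly coincide, and the Smok2 and Tcp10 genes there have close relatives at which reads can be shared.

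Called by size alone, 0 of the 46 windows of 50 kb that lie wholly in the region had both dTAG profiles at least 0.5 above or below both controls, against 0.531% of all 51425 windows in the higher direction and 1.09% in the lower. At a margin of 0.25 the count was 2, both higher after dTAG and adjoining, from 12.75 to 12.85 Mb across the Igf2r start and Airn, where the genome had 2.45% higher and 2.95% lower. These windows scored 3.99 and 4.01, and 4.58 and 4.41, after dTAG, against 3.68 and 3.45, and 4.13 and 3.84, in the controls. limma, which fits the group difference in every window and adjusts p-values over all of them by Benjamini-Hochberg, called 0 of the 51425 windows (0%), with 500 at an unadjusted p under 0.05, none of them in the region; nothing about the cluster is read from these counts, since its genes were chosen on the same profiles. With the replicate number as a block it also called 0. In that fit 6224 of the 51425 windows had an unadjusted p under 0.05, and 6 of the 46 in the region. The 2 shares are close, and nothing about the cluster is read from them either.

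Other genes of the IGF2R pathway came from a list of receptors, ligands, mannose 6-phosphate enzymes and IGF2 mRNA binding proteins. Of these, 10 of 11 scored above 0, beside 71.4% of all genes. None lay in a called window, as none was called anywhere, and 2 of the 11 were set apart as higher, Insr, the insulin receptor gene (difference 0.33), and Gnptab, which encodes a subunit of the enzyme that makes the mannose 6-phosphate tag (0.30), where 10.5% of all genes were set apart as higher. Igf2, the ligand of IGF2R and itself imprinted, scored 0.64 and 0.27 after dTAG, against 0.77 and -0.10 in the controls, with opposite signs in the replicate numbers. The lowest difference on the list was -0.31 at Igf2bp3. The transporter genes of the same families outside the cluster were all above 0 (13 of 13), again beside 71.4% of all genes. Their median difference was -0.04, between -0.57 at Slc29a4 and 0.18 at Slc22a8. Of them 3, Slc22a23, Slc22a16 and Slc22a8, were set apart as higher and 0 as lower, beside 10.5% and 8.32% of all genes. Of 18 genes for factors reported at imprinted domains, among them Ehmt2, Zfp57, Trim28 and Dnmt1, all scored above 0, beside the same 71.4%. Their median difference was -0.05, from -0.53 at Ring1 to 0.22 at Rnf2. Rnf2 was set apart as higher and Yy1 itself as lower, beside 10.5% and 8.32% of all genes. Nothing about these lists is read from the counts. Yy1 had 4.50 and 4.03 after dTAG, against 4.51 and 4.86 in the controls. These are timing scores and not levels of the YY1 protein, which was not measured here. The median over the 4 cluster genes was 0.26, beside 0.00 over all genes.

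Other imprinted domains covered a wide range of timing. Of 37 such genes with a score 28 were above 0, beside 71.4% of all genes. Their median score was 2.13, from -2.52 at Meg3 to 5.12 at Cdh15. Their median difference was 0.00, with 5 set apart as higher and 6 as lower, beside the 10.5% and 8.32% of all genes. Kcnq1ot1, another long antisense RNA that silences its neighbours, scored 3.04 and 3.16 after dTAG, against 2.98 and 2.73 in the controls, a difference of 0.25 (0.07 and 0.43). The 6 set apart as lower, Nap1l5, Snrpn, Ube3a, Mkrn3, Ndn and Magel2, all had mean scores below 0, for example Snrpn with -2.82 and -2.60 after dTAG, against -1.90 and -1.11 in the controls. All but Nap1l5 lie in 1 domain on chromosome 7 and are not separate measurements. The 5 set apart as higher were Kcnq1ot1, Kcnq1, Dio3, Mest and Usp29, by 0.25 to 0.42, and of these Kcnq1ot1 lies inside Kcnq1. Whether the cluster differs from these domains was not tested.

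**Figure D4:**
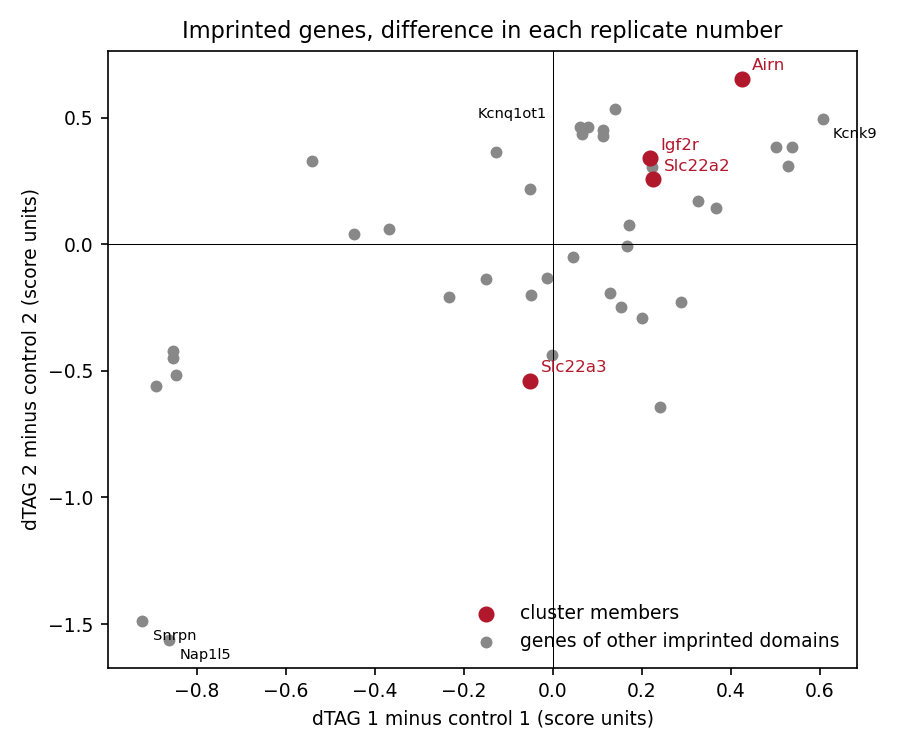
Difference in timing score of imprinted genes, dTAG minus control, in replicate 1 (horizontal axis) and replicate 2 (vertical axis), both in score units, with the 4 cluster genes in red and genes of other imprinted domains in grey. Airn (0.42 and 0.65), Igf2r and Slc22a2 lie in the upper right, Slc22a3 (-0.05 and -0.54) lies below 0, and Snrpn and Nap1l5 are at the lower left.

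Among 20475 protein-coding genes on other chromosomes, those whose 4 scores lay nearest to the mean of the cluster genes (2.66 and 2.19 after dTAG, 2.46 and 2.01 in the controls), by Euclidean distance over the 4 profiles, were Bivm at 0.08, Rbm26 at 0.10, Kcnk15 at 0.11, Adra1d at 0.12 and Antxr1 at 0.13 score units. Bivm had 2.70 and 2.26 after dTAG, against 2.48 and 2.01 in the controls. This likeness is of level and offset over 4 values only.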

How the data were processed

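Timing was measured by Repli-seq in mouse embryonic stem cells, with 40000 cells per sorted fraction per the labels' protocols. Per the submitters' processing notes the tools were Bowtie2, SAMtools and bedtools on mm10, with versions not given in the sources used here. Each 5 kb position of the deposited table holds a signed score; per the file headers and name the authors smoothed it with Loess and quantile normalized it. The score's formula, log base and direction are not stated. Smoothing spreads each value over its neighbours, and normalization fixes each profile's spread.

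Each gene took the score at the position nearest its midpoint; 514245 positions had all 4 profiles. Windows of 50 kb needed at least 0.5 of their 10 positions. Windows were fitted with limma 3.58.1 in R 4.3.3 (group only, 2-sided, threshold 0.05 after Benjamini-Hochberg). The code was checked on simulated windows with less noise than the data, no offset between replicate numbers and larger shifts than in this region. That check does not show whether shifts of the size seen here could be called. Other values were computed with Python 3.11.15 (pandas 2.3.3, numpy 2.4.6) and drawn with matplotlib 3.10.9. Turning points are extremes within 200 kb. The fit without a block was the main one, since the labels do not say that a replicate number marks a shared day or culture. The replicate block was an alternative. The profiles do pair by replicate number, at r = 0.993 and 0.985 within a number. Without the block that pairing is left in the error: the median standard error of a window difference was 0.42, against 0.195 with the block. Alternatives varied the place of the score, window size, margin, normalization and profiles. The genes named are the members, coding genes within 1 Mb, the highest and lowest difference of each list, genes of the imprinted list, and the 5 nearest in score; Gnptab, Igf2, Yy1, Slc22a16, Slc22a23, the factors given as examples and the stem cell genes were named after their values were seen. Some genes of the region are not reported here. Strands for gene starts came from the RefSeq promoter table. A fit with 1 profile left out assumes that the lone profile varies like the other group. Members and lists were chosen with earlier results of these data known. Of 38 listed genes of other imprinted domains 37 had a score.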

Additional observations from a re-analysis of the deposited data

How the results depend on the processing

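Taking the score over the gene body, at the gene start, over the 50 kb window, on one distribution for all profiles or centred on chromosome 17 kept the direction of each of the 4 genes' differences, of their mean and of the climb from Slc22a3 to Airn. The mean difference of 0.19 was 0.17 over gene bodies and 0.22 at gene starts. The difference in climb, 0.83, was 0.35 at gene starts and 0.74 to 0.86 in the other settings except centring, which leaves it as it is. Leaving out 1 profile moved the mean difference between -0.0458 and 0.43 and the difference in climb between 0.24 and 1.43; the mean climb ran from 3.19 to 3.74. The count of region windows, 0, was 2 at a margin of 0.25 and 6 with no margin, and ran from 0 to 11 with 1 profile left out (11 without dTAG 1, 2 without control 1). At a margin of 0.25 the genome had 2.45% higher and 2.95% lower. The genome share was not computed with no margin or with 1 profile left out. Counts with 1 profile left out also carry the offset between replicate numbers, so nothing about the region is read from them. The limma count, 0, ran from 0 to 4 (3 without dTAG 1, 4 without dTAG 2, none of them in the region), was 0 with the replicate block (smallest adjusted p 0.231 with limma), and was 0 on one distribution and in windows of 100 and 200 kb. Depth is unknown and 2 profiles a group limit every comparison; the cause of each shift was not tested, beyond the offset between replicate numbers, which a lone profile exposes.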

Other observations

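The gap between replicate numbers changed along the region. A gap in score is not a gap in rank, since the sets of sorted scores differ between replicate numbers. At Slc22a3 control 1 and control 2 scored 1.01 and 0.32 and stood above 55.8% and 54.3% of positions. At Airn dTAG 1 and dTAG 2 scored 4.30 and 4.32 and stood above 92.6% and 96.8%. How far the change along the region goes with the score level was not tested. From 12.75 to 12.80 Mb, across the Igf2r start and Airn, replicate 1 minus replicate 2 was -0.02 between the dTAG profiles and 0.23 between the controls, and dTAG minus control was 0.44. From 12.25 to 12.30 Mb, in Map3k4, the gaps were 1.42 and 0.94, and dTAG minus control was -0.72. From 13.10 to 13.15 Mb, at Unc93a, the gaps were 0.01 and -0.09. From 13.15 to 13.20 Mb they were -0.01 and -0.06, and dTAG minus control was 0.11.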
